A study of Mus musculus with 4 samples.

Results

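In mouse kidney after pristane, the genes of vitamin D metabolism, of klotho and of renal calcium handling were compared between animals with and without Zbp1. The set was fixed by gene name and holds 10 of the 54532 genes of each count table: Kl, Fgfr1, Vdr, Cyp27b1, Cyp24a1, Pth1r, Calb1, S100g, Trpv5 and Slc8a1. Their Ensembl identifiers were translated to symbols with the mouse GENCODE annotation. None of the 10 passed the test between genotypes after adjustment. The 2 vitamin D hydroxylases were the members with an unadjusted p under 0.05. Cyp27b1, which makes active vitamin D, and Cyp24a1, which degrades it, were both lower in each Zbp1-KO library than in each WT library, with group means that stood 7.89 and 2.60 times higher in WT. Cyp27b1 had few counts and passed the filter on low counts only through the WT libraries, where it was high. At knockout counts this low, a gene without higher WT counts would not have been tested.

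Whole kidneys of female C57BL/6J mice were profiled by poly(A) RNA sequencing, with 2 libraries from wild-type mice (WT 1 and WT 2) and 2 from Zbp1-/- mice (Zbp1-KO 1 and Zbp1-KO 2). Zbp1 encodes an innate immune sensor of nucleic acids in the Z conformation, and the knockout lacked exons removed with CRISPR-Cas9 in every cell. All 4 libraries came from mice injected once into the peritoneum with 500 µL of pristane, a mineral oil hydrocarbon that induces a lupus-like disease, at 8 weeks of age, and the kidneys were taken 8 months later. The comparison therefore addresses what the loss of Zbp1 changes in the pristane-treated kidney, and no library from untreated mice was analysed here. The methods name different suppliers for the wild-type and the knockout mice and do not call them littermates, so genotype and origin of the mice cannot be told apart. The labels number the kidneys without stating that each number is a separate animal, and the p-values below measure only the spread between these libraries.

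The kidney is the main place where the body sets its calcium and phosphate balance. Proximal tubule cells complete the activation of vitamin D through the enzyme encoded by Cyp27b1, and the enzyme encoded by Cyp24a1 inactivates the same hormone. Active vitamin D binds the nuclear receptor encoded by Vdr, which pairs with a retinoid X receptor on DNA and classically induces Cyp24a1 and calcium transport genes. Parathyroid hormone acts on the receptor encoded by Pth1r and raises Cyp27b1. The bone hormone FGF23 acts through fibroblast growth factor receptors such as the product of Fgfr1, with klotho (Kl) as the obligate co-receptor, and lowers Cyp27b1 while raising Cyp24a1. In the distal tubule calcium enters through the channel encoded by Trpv5, is carried across the cell by the calbindins encoded by Calb1 and S100g, and leaves through the sodium/calcium exchanger encoded by Slc8a1 and plasma membrane calcium pumps.

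The promoter of the member with the lowest fold change, Cyp27b1, and that of the most abundant member, S100g, are shown here because vitamin D is known to act on both genes. Each sequence is the 250 bases before the RefSeq start of the gene in GRCm38.p6, written 5′ to 3′ on the strand of the gene, with capitals for hexamers of the kind that the vitamin D receptor is known to bind, searched on both strands as AGGTCA and with the other spellings AGTTCA, together with GGGTCA, together with GGTTCA.
Cyp27b1, chr10:127047996-127048245, plus strand: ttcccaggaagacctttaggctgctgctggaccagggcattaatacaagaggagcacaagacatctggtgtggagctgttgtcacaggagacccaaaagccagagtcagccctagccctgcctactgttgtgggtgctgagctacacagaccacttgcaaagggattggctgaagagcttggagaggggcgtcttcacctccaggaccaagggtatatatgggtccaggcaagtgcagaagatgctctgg
S100g, chrX:162964600-162964849, minus strand: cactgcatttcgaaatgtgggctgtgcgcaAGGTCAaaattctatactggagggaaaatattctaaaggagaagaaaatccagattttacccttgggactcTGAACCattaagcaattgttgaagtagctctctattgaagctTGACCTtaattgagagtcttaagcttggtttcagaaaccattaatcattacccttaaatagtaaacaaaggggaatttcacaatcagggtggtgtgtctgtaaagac

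The S100g sequence held 3 hexamers, at -220 to -215 on the strand of the gene and at -149 to -144 and -107 to -102 on the other strand, counted from the start of the gene. The Cyp27b1 sequence held none before its start, and 1 lay after it, at 37 to 42 on the other strand. RefSeq windows of 300 bases, which add the first bases of the transcript, were found for 7 of the 10 genes, and those of Kl (-93 to -88) and Vdr (-91 to -86) held 1 hexamer each, both on the other strand. Hexamers are frequent, since 43.7% of the 32851 windows of all genes held at least 1. The full response element is a pair of such hexamers in the same direction with 3 bases between them. It was found in 0.0396% of all windows and in none of the windows of the 7 members searched. Fgfr1, Cyp24a1 and Calb1 had no window in the source used, so their promoters were not searched. The letters TATAAA were in 13.6% of all windows, and among the members they stood at -43 to -38 in Trpv5 and at 1 to 6 in S100g. These matches describe letters only and say nothing about binding.

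The libraries held between 9878776 and 12921925 counts, with 49.5% to 61.5% taken by genes of the mitochondrial genome and 4003417 to 5782924 left for the rest. Zbp1-KO 1 had the lowest mitochondrial share and Zbp1-KO 2 the fewest counts. Values below are counts per 1000000 (CPM) on library sizes scaled by the trimmed mean of M values (TMM), on which 3 counts correspond to 0.221 to 0.323 CPM. The targeted gene Zbp1 (ENSMUSG00000027514, chr2:173206612-173218923, minus strand) had 94 and 125 counts in WT against 18 and 0 in Zbp1-KO, or 7.56, 10.7, 1.33 and 0 CPM. Both knockout libraries were below both wild-type libraries, but Zbp1-KO 1 kept some signal, and the gene totals do not show whether it lay inside the deleted exons. Zbp1 itself did not pass the adjusted test, its log2 fold change being -3.64 ± 0.89 (SE) at an adjusted p of 0.999 in edgeR's quasi-likelihood test with Benjamini-Hochberg adjustment, while other settings gave it values down to 2.86e-05. Of the 14908 genes tested, 2 passed an adjusted p of 0.05, which is 0.0134%, and 3.88% had an unadjusted p under 0.05.

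**Figure D1:**
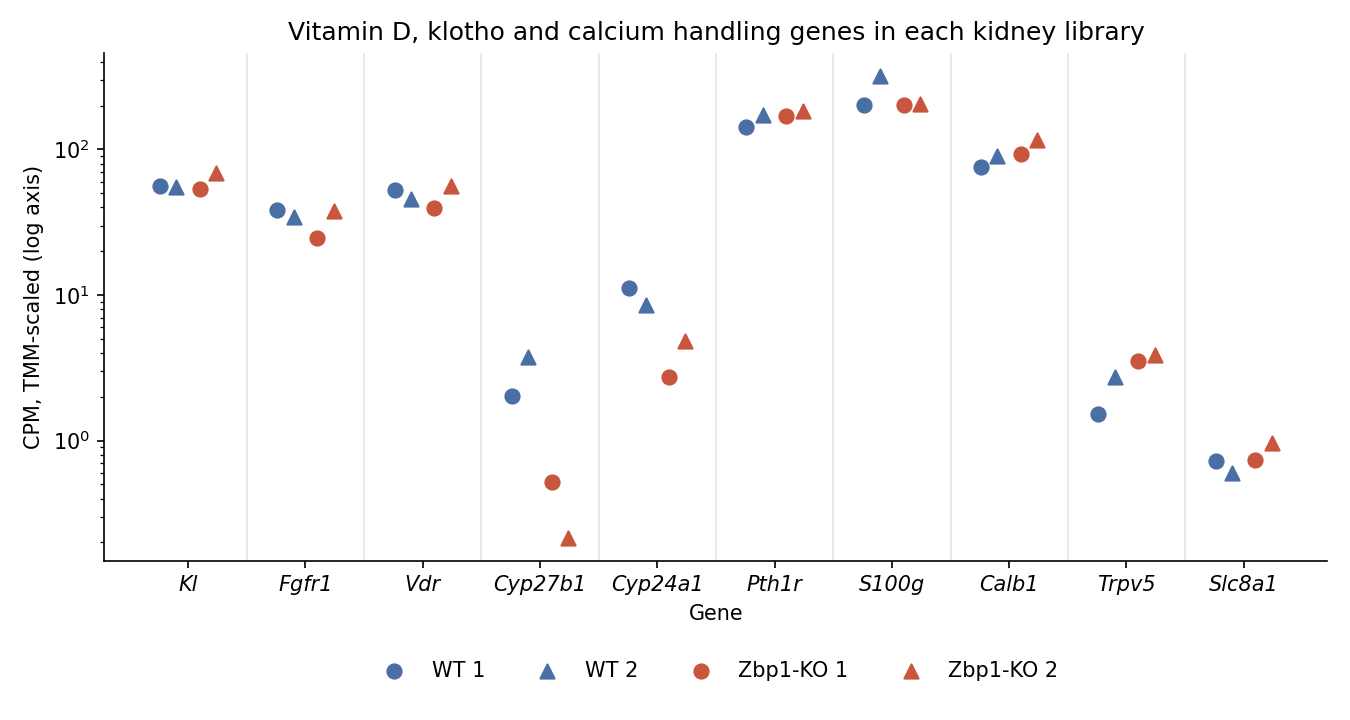
CPM (TMM-scaled, log axis) of the 10 genes in each kidney library, with 1 point per library, blue for WT, red for Zbp1-KO, circles for libraries numbered 1 and triangles for those numbered 2. The red points of Cyp27b1 and Cyp24a1 lie below both blue points, those of Calb1, Trpv5 and Slc8a1 lie just above them, and the other 5 genes overlap.

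Cyp27b1 (ENSMUSG00000006724, chr10:127048250-127053006, plus strand in mm10), the vitamin D 1α-hydroxylase, was counted 25 and 44 times in WT but 7 and 2 times in Zbp1-KO. These counts correspond to 2.01 and 3.76 CPM in WT against 0.516 and 0.215 in Zbp1-KO. The groups did not overlap, and the knockout library nearest to WT stood well under the lower WT library. The means were 2.89 ± 1.24 and 0.366 ± 0.213 CPM (SD, n = 2 each), and the log2 fold change of Zbp1-KO over WT was -2.91 ± 1.11 (SE) with a 95% interval from -5.34 to -0.47. Among all genes tested 0.382% had a log2 fold change this low or lower. The unadjusted p of edgeR's quasi-likelihood test was 0.0231 and the value after Benjamini-Hochberg adjustment was 0.999. Counting error alone left the exact Poisson intervals apart, since those of the WT libraries ran from 1.30 to 2.97 and from 2.73 to 5.05 CPM and those of the Zbp1-KO libraries from 0.208 to 1.06 and from 0.0261 to 0.778 CPM. The gene passed the filter on low counts only through the 2 WT libraries, where it was high. Without WT 2 its unadjusted p was 0.332, without WT 1 it was 0.0695, and with the replicate number as a block it was 0.0506, and in these 3 fits the gene was no longer below 0.05.

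Cyp24a1 (ENSMUSG00000038567, chr2:170482708-170497145, minus strand), the vitamin D 24-hydroxylase, had 139 and 100 counts in WT against 37 and 45 in Zbp1-KO. Its levels were 11.2 and 8.55 CPM in WT against 2.73 and 4.85 CPM in Zbp1-KO, again without overlap. The means of 9.87 ± 1.86 and 3.79 ± 1.5 CPM (SD, n = 2 each) gave a log2 fold change of -1.39 ± 0.46 (SE) with a 95% interval from -2.41 to -0.38, and 2.11% of all genes tested had one this low or lower. The unadjusted p of the quasi-likelihood test in edgeR was 0.0112 and the Benjamini-Hochberg adjusted p was 0.999. Poisson intervals from 6.96 to 13.2 CPM covered both WT libraries and intervals from 1.92 to 6.49 CPM both knockout libraries. Without WT 1 the unadjusted p was 0.0993. An 83-base stretch of its exons is shared with Pfdn4 on the opposite strand, and whether the counting used strand is not given in the sources used here. Pfdn4 read 9.41 and 9.66 CPM in WT against 8.04 and 11.7 in Zbp1-KO, with overlapping groups.

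The enzymes therefore both stood lower in the knockout, although one makes and the other removes the active hormone. Per kilobase of exon, the ratio of Cyp27b1 to Cyp24a1 was 0.249 and 0.609 in WT and 0.262 and 0.0615 in Zbp1-KO, so the balance of the 2 transcripts overlapped between genotypes. Both enzymes are known from the proximal tubule, and the 7 proximal tubule markers, all detected, summed to 2441 and 2125 CPM in WT against 2047 and 2373 in Zbp1-KO, with overlapping groups. Slc27a2 made up most of that sum. Of these 7 markers only Slc22a6, an organic anion transporter, was below an unadjusted p of 0.05, at 0.0479 in edgeR's quasi-likelihood test, and it was lower in Zbp1-KO. In a whole organ, fewer cells of a type and less RNA per cell cannot be told apart.

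**Figure D2:**
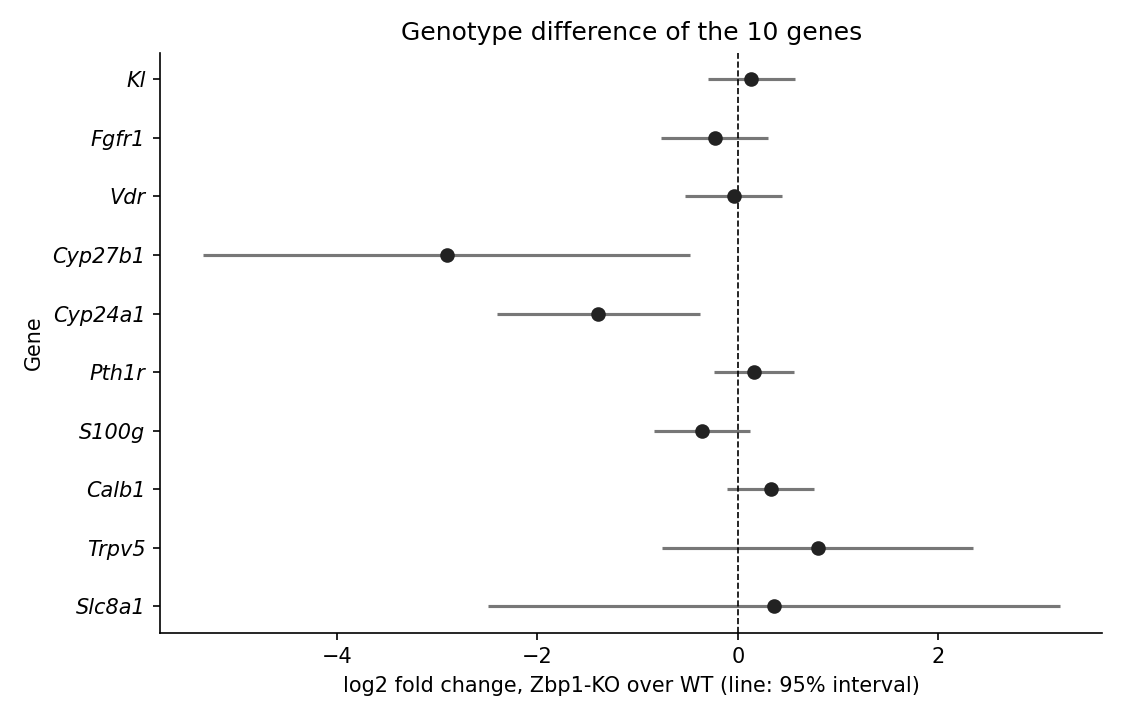
Log2 fold change of Zbp1-KO over WT for each of the 10 genes, with points for the edgeR estimate and lines for the 95% interval. The intervals of Cyp27b1 (-5.34 to -0.47) and Cyp24a1 (-2.41 to -0.38) lie below 0, the other 8 hold 0, and the widest belongs to Slc8a1 with at most 10 counts per library.

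Among the receptors, Vdr (ENSMUSG00000022479, chr15:97854425-97910630, minus strand), the nuclear receptor for active vitamin D, was at 53.1 and 45.6 CPM in WT against 39.7 and 56.2 in Zbp1-KO. The knockout libraries were the lowest and the highest of the 4. The log2 fold change was -0.04 ± 0.22 (SE) with a 95% interval from -0.53 to 0.44. Pth1r (ENSMUSG00000032492, chr9:110722085-110747145, minus strand), the receptor for parathyroid hormone, had 143 and 172 CPM in WT against 169 and 183 in Zbp1-KO. The groups overlapped, and the log2 fold change was 0.16 ± 0.18 (SE) with an interval from -0.24 to 0.56. Its exons share 95 bases with Myl3 on the opposite strand, a gene with at most 5 counts per library.

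Kl (ENSMUSG00000058488, chr5:150952607-150993817, plus strand), which encodes klotho, had 697 and 648 counts in WT against 728 and 639 in Zbp1-KO. Its levels were 56.1 and 55.4 CPM in WT against 53.7 and 68.8 in Zbp1-KO, so the knockout libraries lay on both sides of the narrow WT pair. The means were 55.7 ± 0.447 and 61.3 ± 10.7 CPM (SD, n = 2 each), the log2 fold change was 0.13 ± 0.20 (SE), and its 95% interval ran from -0.30 to 0.57. Fgfr1 (ENSMUSG00000031565, chr8:25513654-25575718, plus strand), a receptor that klotho converts into a receptor for FGF23, had 38.6 and 34.5 CPM in WT against 24.6 and 37.8 in Zbp1-KO. Only Zbp1-KO 1 was low for Fgfr1, and the log2 fold change was -0.23 ± 0.24 with an interval from -0.77 to 0.30. The levels thus gave no difference beyond the replicate spread for either partner of the klotho and FGF receptor pair, with intervals that still allow moderate changes in both directions.

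Of the calcium transport genes of the distal tubule, Calb1, Trpv5 and Slc8a1 were higher in both knockout libraries and S100g was not. The 95% interval of each held 0. S100g (ENSMUSG00000040808, chrX:162961992-162964599, minus strand), which encodes calbindin-D9k, was at 203 and 319 CPM in WT against 203 and 205 in Zbp1-KO. WT 2 alone was high, and the other 3 libraries were nearly equal. The log2 fold change of -0.36 ± 0.22 (SE), with an interval from -0.83 to 0.12, came to 0.00220 without WT 2, so that library decides the value. Without WT 1 it was -0.65, with an unadjusted p of 0.0147, and over all alternatives its adjusted p ran from 0.685 to 1.00 (Benjamini-Hochberg, edgeR and DESeq2).

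Calb1 (ENSMUSG00000028222, chr4:15881264-15908064, plus strand), which encodes calbindin-D28k, had 75.4 and 90.7 CPM in WT against 92.6 and 116 in Zbp1-KO. Both knockout libraries were above both wild-type libraries, but the gap between WT 2 and Zbp1-KO 1 was smaller than the gaps within each group. The means were 83.1 ± 10.9 and 104 ± 16.5 CPM (SD, n = 2 each), and the log2 fold change was 0.33 ± 0.20 (SE) with an interval from -0.10 to 0.76. Leaving out 1 library moved it from 0.15 (without Zbp1-KO 2) to 0.48 (without Zbp1-KO 1). Trpv5 (ENSMUSG00000036899, chr6:41652173-41680769, minus strand), the apical calcium channel, had 19 and 32 counts in WT against 48 and 36 in Zbp1-KO. These were 1.53 and 2.74 CPM in WT against 3.54 and 3.88 in Zbp1-KO, higher in both knockout libraries. At this depth the log2 fold change of 0.80 ± 0.71 had a wide interval, from -0.75 to 2.35. Slc8a1 (ENSMUSG00000054640, chr17:81373105-81738377, minus strand), the basolateral sodium/calcium exchanger, had 7 to 10 counts in every library. It read 0.724 and 0.599 CPM in WT against 0.737 and 0.969 in Zbp1-KO, a difference far within counting error, since the Poisson intervals of all 4 libraries share the range from 0.443 to 1.23 CPM. It passed the filter on low counts only through the 2 Zbp1-KO libraries.

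The cell types that carry these transporters were compared through their other markers. The 4 distal convoluted tubule markers, all detected, summed to 546 and 894 CPM in WT against 700 and 783 in Zbp1-KO, and among them Pvalb and Emx1 were lower in both knockout libraries with unadjusted p of 0.0485 and 0.0434 in edgeR's quasi-likelihood test. The other 2 overlapped between genotypes, with log2 fold changes of 0.09 for Slc12a3 and -0.46 for Trpm6. Slc12a3 made up most of the sum of these 4 markers, whose median log2 fold change was -0.53. The 6 markers of connecting tubule and principal cells, of which 5 passed the filter on low counts, summed to 1187 and 1279 CPM in WT against 972 and 763 in Zbp1-KO, without overlap. Of these, Aqp2 (log2 fold change -0.64), Aqp3 (-0.58) and Scnn1b (-0.73) had unadjusted p of 0.00866, 0.0247 and 0.00459 by the same test, and no marker of either list passed adjustment. In that list Scnn1g overlapped between genotypes, at 18.3 and 8.30 CPM in WT against 12.1 and 10.6 in Zbp1-KO (log2 fold change -0.23). Hsd11b2 overlapped too, at 149 and 93.1 CPM in WT against 145 and 158 in Zbp1-KO, with a positive log2 fold change of 0.32 ± 0.23 (SE). Avpr2, which did not pass the filter, had 6 and 6 counts in WT against 2 and 4 in Zbp1-KO. Aqp2 made up most of the sum. Calb1 and Trpv5 stood higher in both knockout libraries, in which Aqp2, Aqp3 and Scnn1b stood lower and Scnn1g and Hsd11b2 overlapped with WT. The 95% intervals of the log2 fold changes of Calb1 and Trpv5 both held 0. The part of the cell mix in the values of either gene was not tested.

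Counted together, 5 of the 10 genes had a positive and 5 a negative log2 fold change, with a median of 0.05 against -0.01 for all 14908 genes tested. No member passed an adjusted p of 0.05 by edgeR's quasi-likelihood test, by edgeR's exact test or by DESeq2. At an unadjusted p under 0.05, 2 of 10 were lower, where 1.97% of all genes were lower, and 0 of 10 were higher, where 1.91% of all genes were. Since 1 of the 2, Cyp27b1, passed the filter only through the group where it was high, nothing is read from this count against the share of all genes, and Cyp24a1 is the other. Groups did not overlap for 2 members that were lower (Cyp27b1 and Cyp24a1) and 3 that were higher (Calb1, Trpv5 and Slc8a1), while 16.3% of all genes did not overlap in the lower and 16% in the higher direction. Cyp27b1 and Slc8a1 each passed the filter only through the group where the gene was higher, so nothing is read from these counts either. The 95% intervals of the log2 fold changes of the 3 higher members each held 0.

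**Figure D3:**
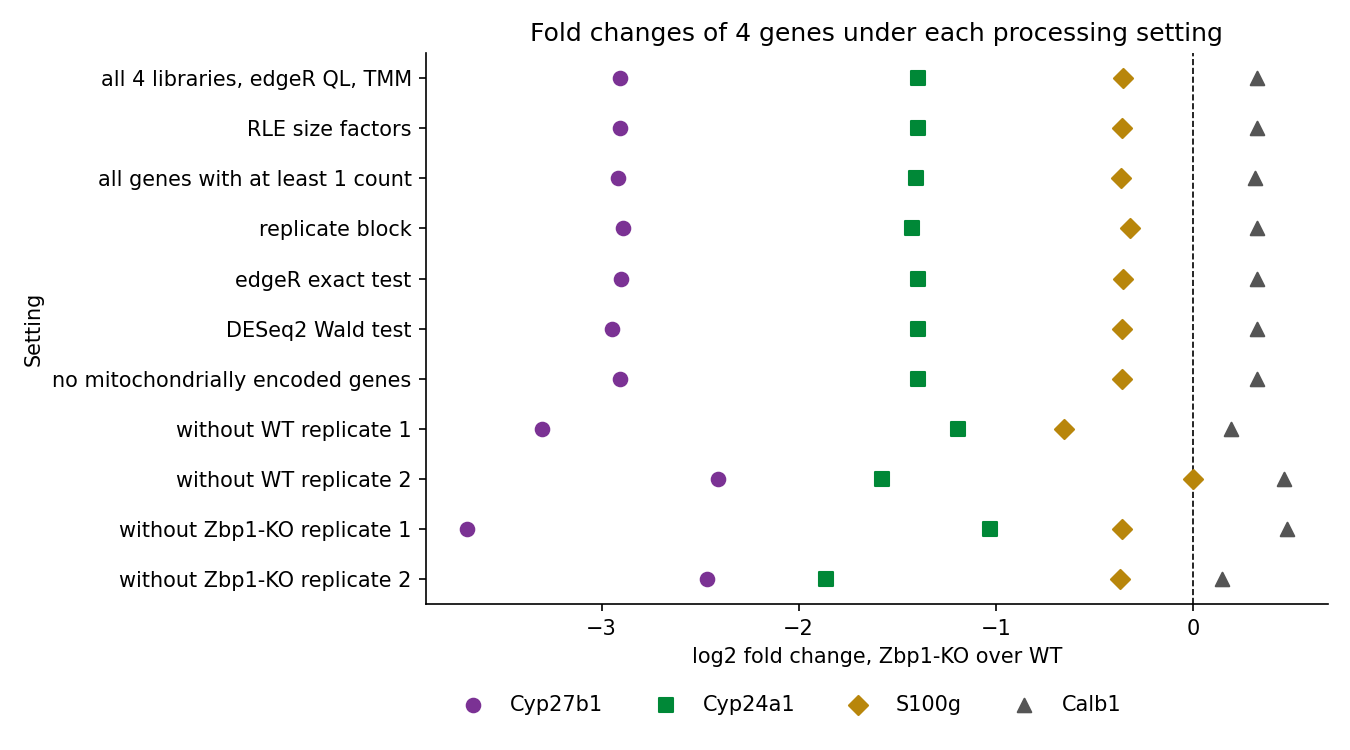
Log2 fold change of Zbp1-KO over WT for Cyp27b1, Cyp24a1, S100g and Calb1 (1 symbol each) under the main settings, 6 other settings with all libraries and 4 settings that each leave out 1 library. Cyp27b1 stays between -3.68 and -2.41 and Cyp24a1 between -1.86 and -1.03, whereas S100g reaches 0.00220 without WT replicate 2.

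The levels of the 10 genes spanned several orders of magnitude. As CPM per kilobase of exon averaged over the 4 libraries, S100g was first at 484 (lowest 423, highest 665), followed by Pth1r at 57.0 (48.9 to 62.6) and Calb1 at 19.3 (15.6 to 23.9). Vdr at 8.61 (7.03 to 9.95) and Kl at 6.27 (5.75 to 7.38) were neighbours with overlapping ranges. Fgfr1 at 3.43 (2.49 to 3.91) and Cyp24a1 at 1.92 (0.766 to 3.14) overlapped too, through WT 1 of Cyp24a1. Trpv5 at 0.901 (0.471 to 1.20) overlapped with Cyp24a1 above it and with Cyp27b1 at 0.632 (0.0837 to 1.46) below it. Slc8a1 was last at 0.0403 (0.0318 to 0.0515), under every library of every other member. The S100g value rests on an exon length of only 480 bases, and poly(A) libraries weigh short transcripts differently from long ones, so the order is approximate.

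The other genes of these pathways were read from 93 further genes in 6 roles, of which 81 passed the filter on low counts. None passed adjustment by edgeR's quasi-likelihood test, and the 81 had a median log2 fold change of -0.07, with 33 higher and 48 lower. An unadjusted p under 0.05 was reached by 2 that were higher, where 1.91% of all genes were. It was reached by 1 that was lower, where 1.97% of all genes were. Since 1 of the 2, Slc24a3, passed the filter only through the group where it was high, nothing is read from these counts.

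In vitamin D metabolism and signalling, 0 of 14 tested genes were below an unadjusted p of 0.05, and the median log2 fold change was -0.16. Lrp2, which encodes megalin, the receptor that takes filtered vitamin D into the proximal tubule, had 262 and 332 CPM in WT against 332 and 337 in Zbp1-KO. Its groups overlapped, with WT 1 alone low. Rxra, the retinoid partner of the vitamin D receptor, had 32.2 and 26.7 CPM in WT against 27.4 and 24.2 in Zbp1-KO, with overlap. Neither gene differed beyond the spread between replicates, with log2 fold changes of 0.17 ± 0.19 for Lrp2 and -0.19 ± 0.23 for Rxra (SE).

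For FGF23 and klotho signalling, 0 of 10 tested genes were below 0.05 and the median was 0.05. Fgf23 itself had 0 counts in every library, which allows up to 0.221 to 0.323 CPM, and Pth and Pth2r from the parathyroid list also had 0. Klb, the co-receptor related to klotho, had 3 counts in WT 1 and 0 in the other libraries. Fgfr4, another FGF receptor of the tubule, was at 27.3 and 25.1 CPM in WT against 22.9 and 19.2 in Zbp1-KO, without overlap and at a log2 fold change of -0.31 ± 0.24 (SE). In the parathyroid hormone and calcium sensing list, with 0 of 10 tested genes below 0.05 and a median of -0.07, the calcium-sensing receptor Casr had 4.18 and 7.61 CPM in WT against 3.24 and 4.09 in Zbp1-KO, at a log2 fold change of -0.69 ± 0.55.

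Calcium transport held 25 tested genes with a median of -0.14, and an unadjusted p under 0.05 was reached by 1 higher and by 1 lower gene. Slc24a3, a potassium-dependent sodium/calcium exchanger, had 7 and 4 counts in WT against 44 and 27 in Zbp1-KO. It read 0.563 and 0.342 CPM in WT against 3.24 and 2.91 CPM in Zbp1-KO, without overlap, giving a log2 fold change of 2.73 ± 1.03 (SE) and an unadjusted p of 0.0215 in edgeR's quasi-likelihood test (adjusted p = 0.999). It passed the filter on low counts only through the 2 Zbp1-KO libraries, where it was high. At WT counts this low, a gene without higher knockout counts would not have been tested. Its unadjusted p was 0.0625 without WT 1, 0.118 without WT 2 and 0.0759 without Zbp1-KO 1. Sgk1, a kinase induced by aldosterone that promotes ion transport in the distal tubule, had 121 and 94.9 CPM in WT against 80.0 and 78.1 in Zbp1-KO, at a log2 fold change of -0.45 ± 0.19 and an unadjusted p of 0.0381 by the same edgeR quasi-likelihood test (adjusted p = 0.999). Without WT 1 the log2 fold change of Sgk1 was -0.27 with an unadjusted p of 0.303, and the p was 0.0672 without Zbp1-KO 1 and 0.0838 without Zbp1-KO 2. Trpv6, the channel most closely related to Trpv5, had 4.10 and 2.31 CPM in WT against 1.77 and 2.91 in Zbp1-KO. The plasma membrane calcium pumps, which share calcium extrusion with Slc8a1, had overlapping or nearly equal groups, with Atp2b1 at 24.4 and 27.5 CPM in WT against 30.1 and 24.5 in Zbp1-KO, and Atp2b4 at 13.2 and 12.8 CPM in WT against 15.4 and 13.2 in Zbp1-KO.

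In the phosphate transport list, with 9 tested genes and a median of -0.21, the phosphate exporter Xpr1 was at 16.3 and 14.3 CPM in WT against 29.3 and 21.1 in Zbp1-KO. It was the member of that list with an unadjusted p under 0.05, at a log2 fold change of 0.72 ± 0.27 (SE) and an unadjusted p of 0.0189 (edgeR quasi-likelihood, adjusted p = 0.999). The unadjusted p of Xpr1 was 0.102 without WT 2 and 0.156 without Zbp1-KO 1, where its log2 fold change was 0.46. Slc34a1, the main phosphate transporter of the proximal tubule and a target of both FGF23 and parathyroid hormone, had 923 and 1032 CPM in WT but 529 and 995 CPM in Zbp1-KO. Zbp1-KO 1 alone was low, and the same library was low for Slc34a3, at 17.3 and 11.7 CPM in WT against 4.65 and 15.9 in Zbp1-KO. The proximal glucose transporter Slc5a2 was also low in this library, at 8.48 CPM against 33.9 to 45.0 CPM in the other 3. Of the other proximal tubule markers in Zbp1-KO 1, Lrp2 and Aqp1 stood within the WT range, at 332 and 390 CPM. Slc22a6, Slc22a8, Slc27a2 and Slc13a3 were below both WT libraries there. In Zbp1-KO 2, Slc34a1, Slc34a3 and Slc5a2 stood within the range of the WT libraries. Slc22a6, Cyp27b1 and Cyp24a1 were below both WT libraries in that library too. The markers Lrp2, Slc22a8 and Slc13a3 were instead above both WT libraries in Zbp1-KO 2, at 337, 205 and 175 CPM. Slc27a2 and Aqp1 stood within the WT range there. The part of the cell mix in these values was not tested.

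Magnesium and distal salt transport, with 13 tested genes, had a median near 0 and 0 genes below 0.05. Slc12a3, the thiazide-sensitive sodium chloride cotransporter, had 495 and 823 CPM in WT against 652 and 749 in Zbp1-KO. Trpm6, the distal magnesium channel, had 15.3 and 21.7 CPM in WT against 18.1 and 8.51 in Zbp1-KO.

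**Figure D4:**
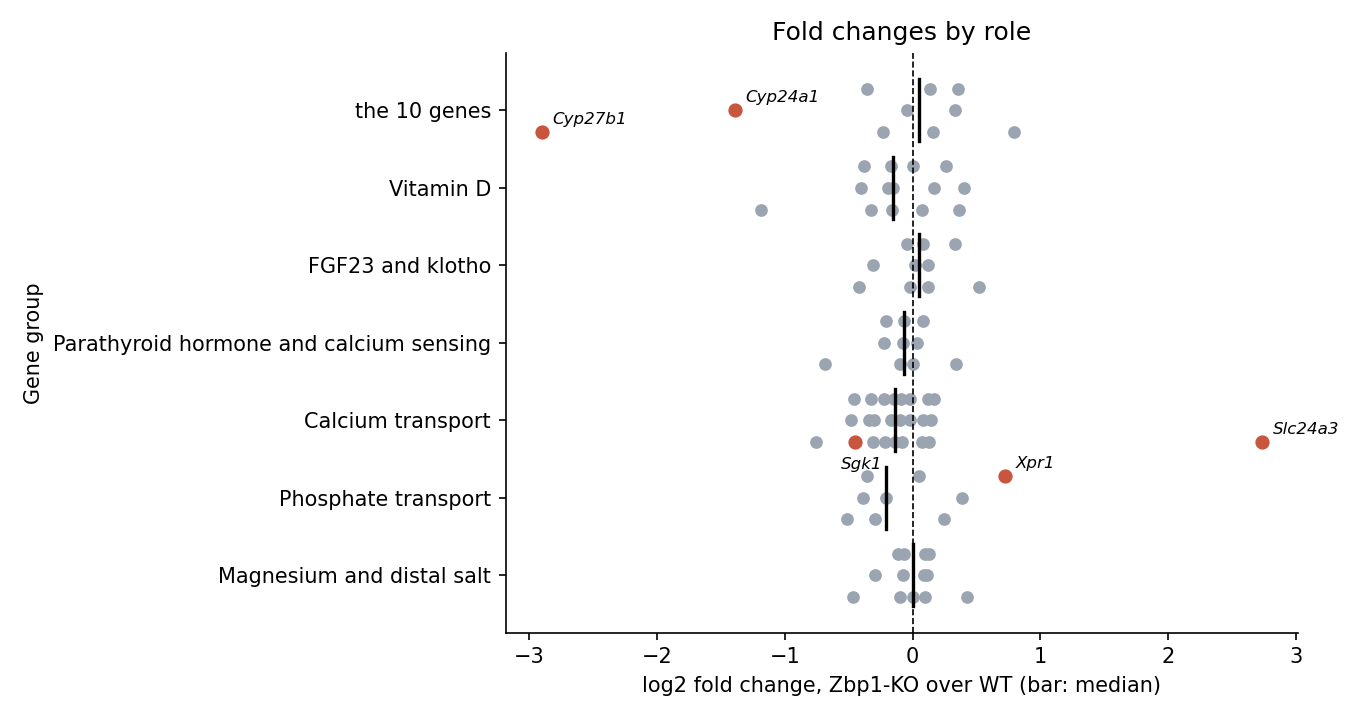
Log2 fold change of Zbp1-KO over WT for the 10 genes and for the tested genes of the 6 role lists, with 1 point per gene, a bar at the median of each group and red points with names for genes with an unadjusted p under 0.05. The medians lie between -0.21 and 0.05, and Cyp27b1 (-2.91) and Slc24a3 (2.73) lie at the 2 ends.

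Genes with the pattern most like Kl over the 4 libraries were sought among 8206 genes with a mean of at least 10 CPM, by the root mean square distance of centred log2 CPM. The nearest were Ccnd3 (distance 0.0176), Phf1 (0.0181) and Mbnl1 (0.0187). For Calb1 they were Smim6 (0.0117), Crebzf (0.0189) and 2510009E07Rik (0.0222). With 4 libraries such likeness is a description of these samples only.

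Other cell types were checked through lists of marker genes. The 5 macrophage markers summed to 233 and 158 CPM in WT against 224 and 222 in Zbp1-KO, a sum of which Csf1r made up most. All 5 had a positive log2 fold change, with a median of 0.39, but 0 of 5 were below an unadjusted p of 0.05. Groups did not overlap for 3 of the 5 (Adgre1, C1qa and C1qb), where 16% of all genes tested did not overlap in the higher direction. The 4 tested T cell markers (median 1.05, 2 without overlap) and the 4 podocyte markers (median 0.37, 2 without overlap, with Synpo below an unadjusted p of 0.05) also had positive values, and the 5 fibroblast markers had negative values (median -0.33), all with overlapping groups. The T cell markers without overlap, Cd4 and Cd8a, had only 11 to 63 counts per library. No marker of these 4 lists passed adjustment in edgeR's quasi-likelihood test. The fat markers had sums of 78.6 and 104 CPM in WT against 210 and 170 in Zbp1-KO. Adipoq, Cfd and Fabp4 had an unadjusted p under 0.05, as had Plin1, which entered the test only through the Zbp1-KO libraries where it was high, and Cfd passed adjustment (edgeR quasi-likelihood, adjusted p = 0.00889), while the fifth, Lep, had 0 counts. The part of these cell types in the values of the 10 genes was not tested.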

How the data were processed

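The authors sequenced poly(A) RNA of whole kidneys (Illumina, paired reads), trimmed reads with Trimmomatic, aligned them with HISAT2 to mm10 and deposited featureCounts gene counts, 1 table per library, as raw counts that were not normalized. Tool versions, the annotation release and the strand setting of the counting are not given in the sources used here. Of 54532 identifiers, 54495 matched GENCODE M21 symbols. The tables sum to 9878776 to 12921925 counts.

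From these deposited counts, edgeR 4.0.16 (R 4.3.3, limma 3.58.1) was run with filterByExpr (minimum count 10, minimum total 15), TMM scaling and the quasi-likelihood F test of genotype over all 4 libraries. Values of p were adjusted by Benjamini-Hochberg over 14908 genes, with a threshold of 0.05. CPM used TMM-scaled library sizes. Fold changes are Zbp1-KO over WT with a prior count of 0.125. The SE was taken from the fold change and its F statistic. Count intervals are exact Poisson (95%) and cover counting error only, since the reads carry no molecular identifiers. A count of 0 was taken to allow 3 counts. The fit was tested on simulated data.

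The members and lists were chosen with earlier results of these data known. Genes named are the 10 members, Zbp1, up to 12 other pathway genes with the lowest unadjusted p under 0.05, 12 further pathway genes named whatever their values, and for Kl and Calb1 the 3 genes with the nearest pattern. Marker genes, genes that share exon sequence with a member and undetected hormones and receptors were named beside the results they touch, after their values were seen. Alternatives were RLE size factors, no filter beyond 1 count, a replicate block, edgeR's exact test, DESeq2 1.42.0, no mitochondrially encoded genes, and leaving out each library. Replicates differed by more than counting noise (chi-square per degree of freedom 16.2 in WT and 29.4 in Zbp1-KO). Promoters came from a RefSeq table of GRCm38.p6, which is mm10.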

Additional observations from a re-analysis of the deposited data

How the results depend on the processing

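With 2 libraries per genotype, depth and number limit most of all the genes under 50 counts in every library, Cyp27b1, Trpv5 and Slc8a1. No member passed an adjusted p of 0.05 under any alternative. Over all genes, 2 passed in the main analysis and with RLE size factors, 41 with every gene of at least 1 count (14 higher, 27 lower), 11 with the replicate block, 14 with edgeR's exact test, 9 with DESeq2 and 4 without mitochondrially encoded genes, and 0 to 37 when 1 library was left out (0 without WT 1, 20 without WT 2, 8 without Zbp1-KO 1, 37 without Zbp1-KO 2). Cyp27b1 kept its direction in every alternative, with log2 fold changes from -2.95 to -2.89 with all libraries and from -3.68 to -2.41 with 1 left out, and adjusted p from 0.521 to 1.00. Cyp24a1 kept it too, from -1.42 to -1.39 and from -1.86 to -1.03, and adjusted p from 0.153 to 1.00. With the replicate block they were -2.89 and -1.42. Same-numbered libraries did not deviate together (correlation 0.00399), so the numbers are not taken to pair the libraries.

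Of 99 alternative values of the members, 94 kept direction and call and 5 changed sign, all on leaving out 1 library. Kl ranged from -0.0622 (without Zbp1-KO 2) to 0.298, Fgfr1 from -0.577 to 0.0428 (without Zbp1-KO 1), Vdr from -0.320 to 0.182 (without Zbp1-KO 1; 0.0635 without WT 1) and S100g from -0.654 to 0.00220 (without WT 2). The members that kept their sign also moved, Pth1r from 0.0231 to 0.293, Calb1 from 0.149 to 0.476, Trpv5 from 0.428 to 1.27 and Slc8a1 from 0.146 to 0.537. Of the other named genes, Trpv6 ranged from -0.863 to 0.00476, Atp2b1 from -0.0899 to 0.208 (-0.0157 without WT 1), Slc12a3 from -0.240 to 0.495 (-0.0221 without Zbp1-KO 2), Slc34a1 from -0.893 to 0.0193 and Slc34a3 from -1.65 to 0.129. The cause was not tested. Slc8a1 did not pass the filter without mitochondrially encoded genes and has no value there. Zbp1 passed adjustment with every gene of at least 1 count, with the exact test and without either Zbp1-KO library, at log2 fold changes of -3.65, -3.67, -9.67 (without Zbp1-KO 1, the remaining library having 0 counts) and -2.78.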
